A study of Mus musculus with 12 samples.

Results

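Haem is the iron-bearing ring that haemoglobin, cytochromes and many other enzymes carry, and the liver is, after the bone marrow, its main site of synthesis. Synthesis starts in the mitochondrion with 5-aminolevulinate synthase, which has a form used by most tissues (Alas1, the rate-limiting step in the hepatocyte) and a form used by red cell precursors (Alas2). The next enzymes join and close the ring, ferrochelatase adds the iron, haem oxygenase opens the ring again, and haemopexin carries free haem from the plasma back to the liver.

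This report describes 9 genes of haem synthesis, breakdown and scavenging and of α-globin among the 24537 genes of a mouse liver RNA-Seq table. They were chosen by symbol. Alas1, Alad, Urod and Fech are enzymes of synthesis in the hepatocyte, Hmox1 is haem oxygenase 1, and Hpx is haemopexin. Hba-a1 and Hba-a2 are the α-globin genes, and Alas2 is grouped with them as a gene of the red cell lineage. All 9 were found.

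The livers came from 12 male C57Bl/6J mice, which entered the study at 6 weeks of age and were housed individually. The 3 Con mice at day 25 (Con7, Con8 and Con9) and the 3 at day 30 (Con10, Con11 and Con12) ate ad libitum. The 3 CR mice at day 25 (CR7, CR8 and CR9) and the 3 at day 30 (CR10, CR11 and CR12) were under caloric restriction, with 30% less food than the ad libitum mice ate. Per the methods of the study, CR mice were fed daily at noon and got a fortified form of the diet of the Con mice. Fewer calories, the meal time and the form of the diet therefore cannot be told apart. The study set these days on either side of a drop in hepatic protein synthesis. Each library held 15748977 to 23345046 reads, and the unit is FPKM, which divides exon reads by exon length and by library depth. As the tissue was whole liver, fewer cells of a type and less RNA per cell cannot be told apart.

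The labelled tissue was checked against marker genes. The 10 hepatocyte markers summed to 51774 to 58293 FPKM in Con and 57251 to 61255.5 FPKM in CR mice at day 25. The sums at day 30 were 42933 to 51654.5 FPKM in Con and 59629 to 70620 FPKM in CR mice, which did not overlap. At day 30, 3 of these 10 markers rose and 1 fell, when 24.7% of all genes tested were called, and their median log2 fold change was 0.10. Alb (albumin), the most abundant, rose by 0.64 on the log2 scale (adjusted p = 0.00791 from limma). It made up most of the sums, with means at day 30 of 29732 FPKM in Con and 46413 FPKM in CR mice. The part of the difference between the sums in the results that follow was not tested. The 12 markers of blood leukocytes and platelets summed to 2.05 to 4.57 FPKM, and the neutrophil genes Ly6g and Camp were listed at 0 in all 12 libraries. The 11 markers of Kupffer cells and macrophages summed to 75.7 to 126.5 FPKM in Con mice and 49.4 to 59.4 FPKM in CR mice at day 25. At day 30 the ranges were 67.3 to 98.5 FPKM in Con mice and 63.3 to 89.7 FPKM in CR mice.

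All 9 genes passed the filter on low values (at least 1 FPKM in at least 3 libraries) and were tested with limma on log2(FPKM + 1), together with 10593 genes in all. A gene was called at a Benjamini-Hochberg adjusted p under 0.1. At day 25, 1 of the 9 genes was called, against 14.9% of all genes tested. At day 30 the count was 1 of 9, against 24.7% of all genes. Over both days together 2 of 9 were called, against 39.6%. The gene called at both days was Alas2, which was lower in CR mice, and the other gene called over both days was Alad, which was higher.

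When a log2 fold change of 1 or more in size was also required, none of the 9 was called at day 25 (1.48% of all genes), where limma gave 2 of them an unadjusted p under 0.05. The same rule kept Alas2 alone at day 30 (2.21% of all genes) and over both days (1.66% of all genes). The median log2 fold change of the 9 genes was -0.025 at day 25 and 0.21 at day 30. Hba-a1 and Hba-a2, which take the same reads, both enter these counts and medians. Over all genes tested it was -0.039 and -0.068.

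**Figure D1:**
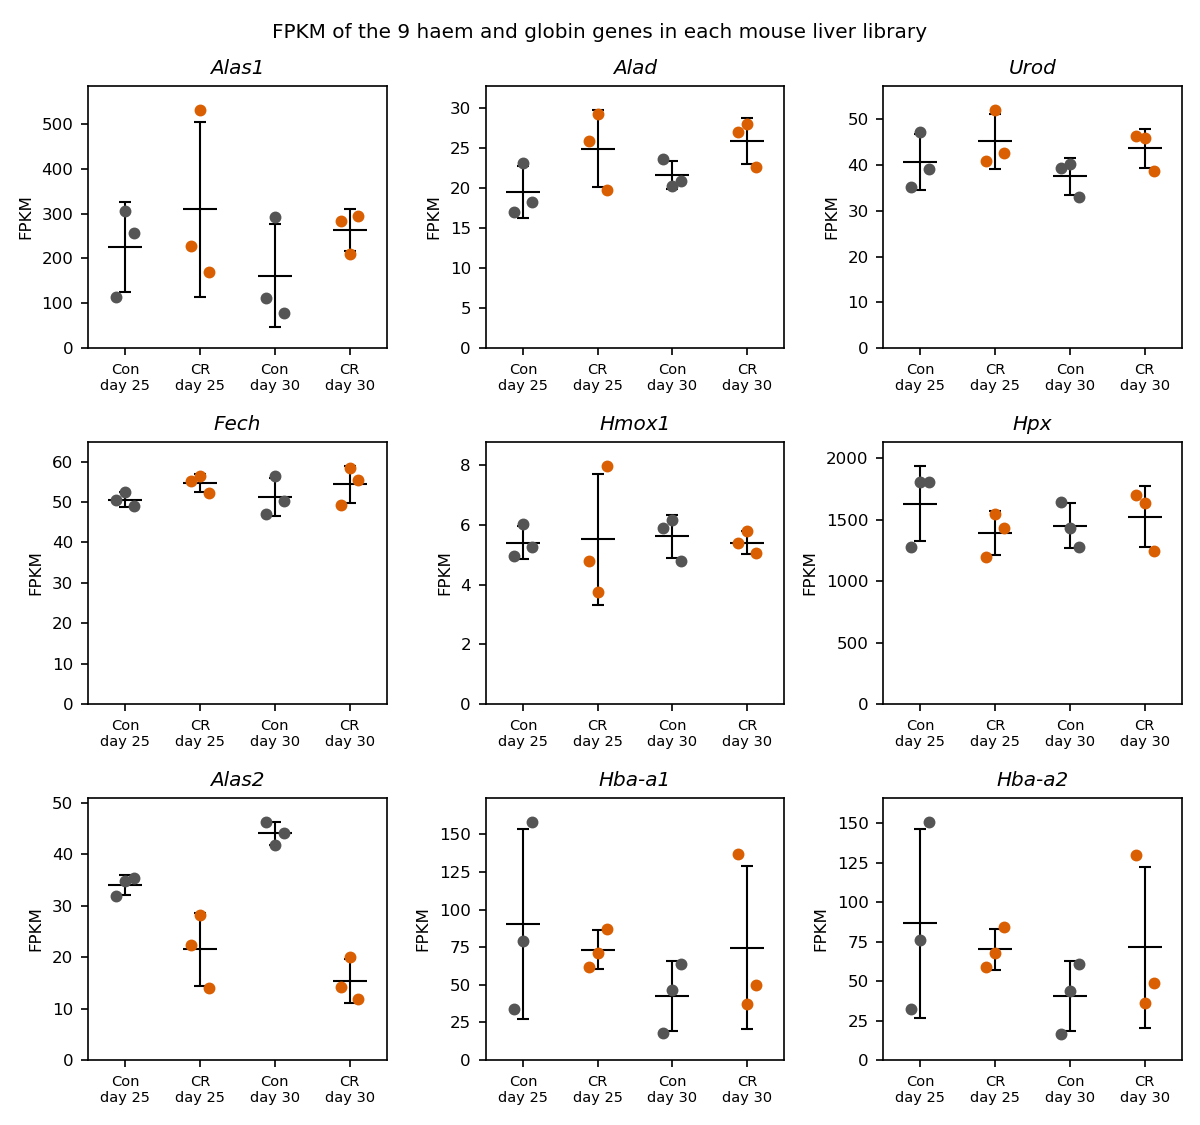
FPKM of each of the 9 genes (vertical axes, from 0) in the 12 libraries, by group. Points are mice, the horizontal line is the mean and the bars are the SD of 3 mice. The CR mice lay below all Con mice at both days for Alas2, with 11.8 to 19.97 FPKM in CR and 41.7 to 46.2 FPKM in Con mice at day 30, while the groups overlapped for the other 8 genes.

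Levels spanned a wide range. Hpx, a major secreted liver protein, was highest at 1499.98 ± 221 FPKM (SD, n = 12 libraries). Alas1 followed at 239.5 ± 121 FPKM, and the ranges of these genes did not overlap. Hba-a1 and Hba-a2 stood at 70.2 ± 41.3 and 67.2 ± 39.4 FPKM.

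Below them came Fech at 52.7 ± 3.62, Urod at 41.8 ± 5.40, Alas2 at 28.7 ± 12.2 and Alad at 23.0 ± 3.92 FPKM. Neighbours from Alas1 to Alad overlapped in range, although Alas1 exceeded Hba-a1 in all 12 libraries. Hba-a2 exceeded Fech in 7 of 12 libraries, Urod exceeded Alas2 in 9 and Alas2 exceeded Alad in 6, so the order of these pairs is not firm. The place of Alad also depends on its exon length, which was 4433 bases in its row and 1247 for the matching GENCODE transcript. Its row held 1361 to 2785 reads per library, against 960 to 1600 for Urod with 1477 bases. Hmox1 was lowest, at 5.49 ± 1.03 FPKM, and lay below Alad in all 12 libraries.

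The genes also differed in how much mice varied. The highest library exceeded the lowest by 1.24 times for Fech, 1.51 times for Hpx and 1.58 times for Urod. The ratio was 6.76 for Alas1, 8.98 for Hba-a1 and 9.08 for Hba-a2. Hmox1 rested on 93 to 252 reads per library and Alas2 on 527 to 1911.

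Alas2 was the member that separated the diets. Its row covers the transcript NM_001102446 at chrX:150547417-150570622 on the plus strand of mm10, with 1921 bases of exon. The 250 bases before its start site, chrX:150547167-150547416 in RefSeq on GRCm38.p6, are shown beside those of Hba-a1 (chr11:32283422-32283671, plus strand) and of Alas1 (chr9:106247955-106248204, minus strand). Capitals mark GATAA, a form of the motif bound by the erythroid factor GATA1, and CACCC, bound by KLF factors, on either strand.

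Alas2: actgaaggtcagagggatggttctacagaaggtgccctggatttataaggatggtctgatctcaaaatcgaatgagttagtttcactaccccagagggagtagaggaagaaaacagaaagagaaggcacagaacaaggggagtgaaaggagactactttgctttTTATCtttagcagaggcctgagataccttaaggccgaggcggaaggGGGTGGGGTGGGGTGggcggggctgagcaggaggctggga
Hba-a1: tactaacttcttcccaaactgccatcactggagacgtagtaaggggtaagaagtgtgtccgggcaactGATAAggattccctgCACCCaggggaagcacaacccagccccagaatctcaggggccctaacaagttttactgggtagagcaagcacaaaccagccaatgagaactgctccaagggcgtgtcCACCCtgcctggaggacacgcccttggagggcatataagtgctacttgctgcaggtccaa
Alas1: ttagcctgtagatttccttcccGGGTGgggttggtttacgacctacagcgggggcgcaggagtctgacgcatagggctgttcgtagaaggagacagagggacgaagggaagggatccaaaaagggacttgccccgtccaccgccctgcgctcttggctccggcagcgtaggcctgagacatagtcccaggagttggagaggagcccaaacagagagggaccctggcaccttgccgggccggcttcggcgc

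The Alas2 window held GATAA 1 time and CACCC 3 times, and the Hba-a1 window held them 1 and 2 times. The Alas1 window held no GATAA and 1 CACCC. Of 32851 promoter windows of this length in mouse, 22.6% hold GATAA and 52.0% hold CACCC on either strand, so a match describes the letters and no more. The windows of Alad, Urod and Hpx held no GATAA, and windows of Fech and Hmox1 were not used.

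At day 25, Alas2 was at 31.8, 34.7 and 35.4 FPKM in the Con mice and at 22.3, 28.1 and 14.03 FPKM in the CR mice. The Con mice of day 30 were at 46.2, 41.7 and 44.1 FPKM and the CR mice at 14.2, 19.97 and 11.8 FPKM. Every CR mouse was below every Con mouse of its day. None of the other 8 genes separated the groups at either day, while 28.2% of all genes tested did so at day 25 and 36.4% at day 30. The CR mice lay below the Con mice at both days for 12.2% of all genes.

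The mean of Alas2 was 0.633 times that of Con at day 25, a log2 fold change of -0.69 (standard error 0.21, 95% confidence interval -1.15 to -0.22, adjusted p = 0.0667 from limma). The mean at day 30 was 0.348 times that of Con, with a log2 fold change of -1.49 (standard error 0.21, interval -1.96 to -1.03, adjusted p = 9.7e-04). Over both days the log2 fold change was -1.09 (standard error 0.15, adjusted p = 3.0e-04).

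The calls at day 30 and over both days held under all 23 alternatives for each. The call at day 25 held in 18 of 24. It was lost without Con7 (adjusted p = 0.117 from limma), Con8 (0.133), Con9 (0.156), CR7 (0.113) or CR9 (0.213), where the log2 fold change without CR9 was -0.42, and when genes of low FPKM were kept in the test (0.129).

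The effect of CR on Alas2 at day 30 differed from that at day 25 by -0.81 on the log2 scale (standard error 0.30, interval -1.47 to -0.15). The unadjusted p of this difference was 0.0206 in limma and its adjusted p was 1.00, so it was not called. None of the 9 genes was called for this difference, by limma or by voom on recovered reads, and 0.00944% of all genes were. From day 25 to day 30, Alas2 moved by -0.44 in CR mice (adjusted p = 0.577 from limma) and by 0.36 in Con mice (adjusted p = 0.745). None of the 9 genes was called between the days in CR mice (0.321% of all genes called) or in Con mice (0% of all genes), and none had an unadjusted p under 0.05 there. By limma 765 genes had an unadjusted p under 0.05 between the days in Con mice, and voom called 0 genes.

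Some exon sequence of Alas2 is shared with a gene on the other strand. In GENCODE release M21, 295 of 1892 exon bases of this transcript lie in exons of Apex2, a DNA repair nuclease gene on the minus strand. Apex2 itself was at 1.47 to 3.14 FPKM in the 12 libraries. The header names no strand setting for the counting, so reads of these 295 bases cannot be told apart.

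Alas1, which sets the rate of synthesis in the hepatocyte, varied widely within groups. At day 25 it was at 113.8, 305.3 and 256.2 FPKM in the Con mice and at 226.5, 531.3 and 169.7 FPKM in the CR mice. The values of day 30 were 111.7, 292.3 and 78.6 FPKM in Con and 284.1, 210.3 and 294.7 FPKM in CR mice. The groups overlapped at both days, and the highest Con mouse of day 30, Con11, was among the CR values.

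The log2 fold change of Alas1 was 0.40 at day 25 (standard error 0.51, interval -0.70 to 1.497, adjusted p = 0.678 from limma). The value at day 30 was 0.92 (standard error 0.51, interval -0.18 to 2.02, adjusted p = 0.232), and over both days 0.66 (interval -0.12 to 1.44, adjusted p = 0.182). Without Con11, the rise passed the threshold at day 30 (1.46, adjusted p = 0.0664 from limma) and over both days (0.93, adjusted p = 0.0478). Without Con7 or CR8, the value at day 25 was -0.03 and -0.08.

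Alas2 made up 10.2% to 21.9% of the summed FPKM of Alas1 and Alas2 in Con mice at day 25 and 5.02% to 8.98% in CR mice. At day 30 the shares were 12.5% to 36.0% in Con mice and 3.83% to 8.67% in CR mice. Alas1 was the more abundant form in every library, and the shares of Con and CR mice did not overlap at either day. Alas2 alone already separated the groups at both days, so the shares are not a separate result.

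Alad, the next enzyme, which joins 2 molecules of 5-aminolevulinate to porphobilinogen, was at 17.0, 23.1 and 18.2 FPKM in the Con mice and 25.9, 29.2 and 19.7 FPKM in the CR mice at day 25. Con mice of day 30 were at 23.6, 20.3 and 20.9 FPKM and CR mice at 26.9, 28.0 and 22.6 FPKM. On each day 2 of the 3 CR mice lay above all Con mice and the lowest CR mouse lay among them.

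Alad rose over both days by 0.29 on the log2 scale (standard error 0.11, interval 0.06 to 0.52, adjusted p = 0.0577 from limma). It was not called at day 25 (0.34, adjusted p = 0.192) or at day 30 (0.25, adjusted p = 0.287). With the replicate number as a block, which pairs mice at day 25, it was called at day 25 (adjusted p = 0.0977 from limma), so that 2 of the 9 genes were called there. It was also called at day 25 with median-ratio scaling and without CR9. The call over both days was lost without Con7, Con9, Con11, Con12, CR7, CR8, CR10 or CR11, with adjusted p of 0.104 to 0.125 from limma and log2 fold changes of 0.23 to 0.28.

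Urod, which trims uroporphyrinogen to coproporphyrinogen, had a mean of 40.6 ± 6.14 FPKM in Con and 45.2 ± 6.01 FPKM in CR mice at day 25 (SD, n = 3). At day 30 the means were 37.6 ± 4.03 FPKM in Con and 43.6 ± 4.33 FPKM in CR mice. Over both days the log2 fold change was 0.18 (interval -0.03 to 0.39, adjusted p = 0.172 from limma), and limma called it with the replicate block (adjusted p = 0.0891), without Con8 (0.0779) and under 2 other scalings. Fech, which inserts iron into the ring, had means between 50.6 ± 1.79 and 54.7 ± 2.16 FPKM in the 4 groups. Its log2 fold change over both days was 0.10 (interval -0.05 to 0.25, adjusted p = 0.310 from limma).

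**Figure D2:**
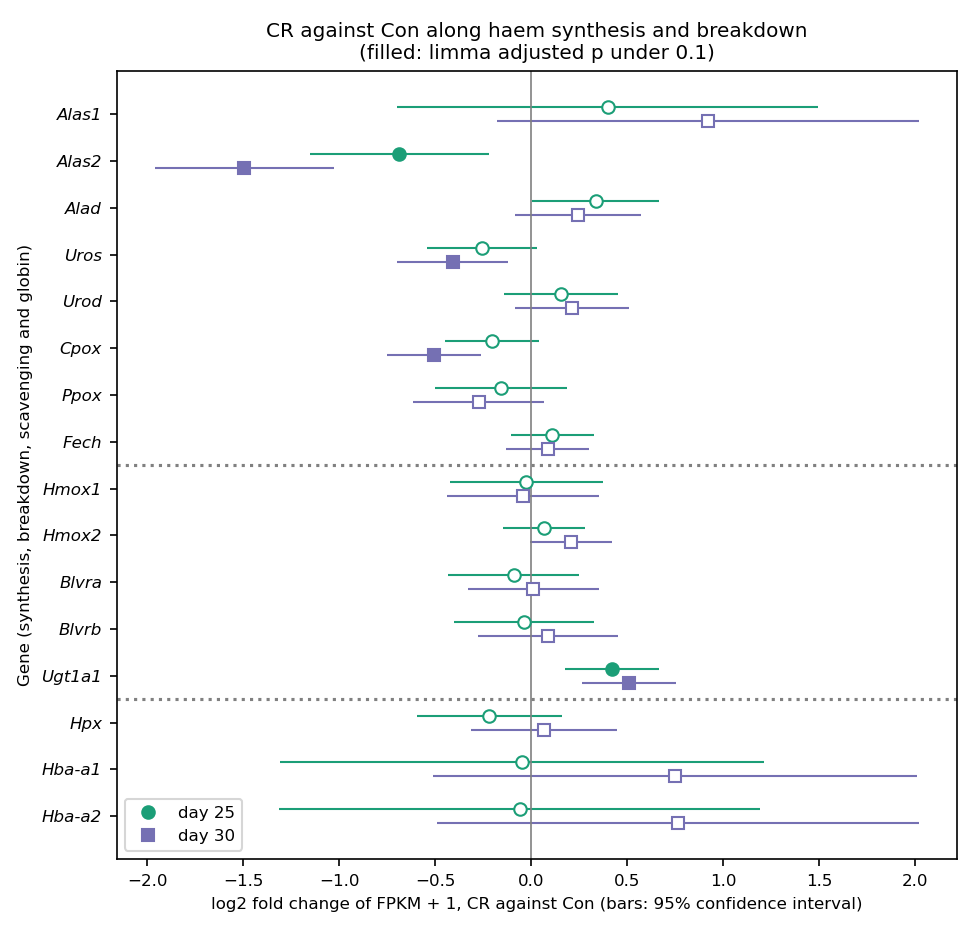
Log2 fold change of FPKM + 1 in CR against Con mice (horizontal axis, bars are 95% confidence intervals from limma) at day 25 and day 30 for 8 enzymes of haem synthesis in order, the enzymes of breakdown, haemopexin and α-globin. Filled marks passed an adjusted p under 0.1. Alas2 lay at -0.69 and -1.49, Cpox and Uros were filled at day 30, and Ugt1a1 was filled at both days.

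Uros, Cpox and Ppox are also enzymes of synthesis. Of the 8 enzymes described, 0 rose and 1 fell at day 25, 0 rose and 3 fell at day 30, and 1 rose and 3 fell over both days. Alas2, placed above with the red cell lineage, is counted among the 8. It was the 1 that fell at day 25 and was among the 3 that fell at day 30 and over both days. These are 1, 3 and 4 of 8 called, against 14.9%, 24.7% and 39.6% of all genes tested. Their median log2 fold change over both days was -0.059, against -0.054 for all genes tested. Cpox, coproporphyrinogen oxidase, went from 56.3 ± 1.66 FPKM in Con to 39.4 ± 3.72 FPKM in CR mice at day 30, with every CR mouse below every Con mouse. At day 30 the groups did not overlap, in either direction, for 36.4% of all genes tested. At day 25 the groups overlapped for Cpox, which was not called (adjusted p = 0.282 from limma). Its log2 fold change was -0.51 at day 30 (adjusted p = 0.01005 from limma) and -0.36 over both days (adjusted p = 0.00585). Uros, which closes the ring, fell over both days by 0.33 on the log2 scale (adjusted p = 0.0191 from limma). Alas1, Urod, Ppox and Fech did not pass the test.

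Of 10 genes of precursor transport and ALAS turnover, 2 rose and 1 fell over both days, when 39.6% of all genes were called. Clpx, part of the mitochondrial protease that unfolds and turns over ALAS, fell from 47.2 ± 11.7 to 27.8 ± 7.67 FPKM at day 25 and from 46.5 ± 9.31 to 19.6 ± 0.768 FPKM at day 30. Over both days its log2 fold change was -0.97 (adjusted p = 5.5e-04 from limma). Tmem14c, a mitochondrial carrier of protoporphyrinogen, rose over both days by 0.38 (adjusted p = 0.00873 from limma), and Slc25a37, an iron importer of the mitochondrion, by 0.24 (adjusted p = 0.0969), a call kept in 9 of 23 alternatives.

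Of 11 regulators of Alas1 and Hmox1, 3 rose and 2 fell over both days, a share near the 39.6% of all genes called. Ppargc1a and Foxo1, which act on Alas1 in fasting, rose by 0.92 (adjusted p = 0.00204 from limma) and 0.79 (adjusted p = 1.4e-04). Nr1i2, the xenobiotic receptor PXR, rose by 0.79 (adjusted p = 1.3e-04 from limma). Nr1d1, the haem-binding clock repressor Rev-erbα, had the largest change of the 11, from 50.6 ± 8.80 FPKM in Con to 9.52 ± 0.511 FPKM in CR mice at day 30 and a log2 fold change over both days of -2.32 (adjusted p = 4.9e-08 from limma). Nfe2l2, a regulator of Hmox1, fell by 0.24 (adjusted p = 0.0556 from limma), which 17 of 23 alternatives kept.

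Hmox1, the inducible haem oxygenase, was low in all groups. It was at 4.95, 6.03 and 5.26 FPKM in the Con mice and at 4.81, 3.76 and 7.99 FPKM in the CR mice at day 25. On day 30 the Con mice were at 5.91, 6.16 and 4.81 FPKM and the CR mice at 5.38, 5.80 and 5.05 FPKM. The highest and the lowest value of the 12 were both in CR mice of day 25, CR9 and CR8.

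The log2 fold change of Hmox1 over both days was -0.03 (interval -0.31 to 0.25, adjusted p = 0.871 from limma), and its sign turned under median-ratio scaling (0.03) and quantile normalization (0.04). Hmox1 is also made by macrophages. Of the 11 Kupffer cell and macrophage markers, 7 fell and 0 rose at day 25, and 0 fell and 1 (Marco) rose at day 30, with a median log2 fold change of -0.67 and -0.16 (14.9% and 24.7% of all genes called). Of the 7, Vsig4 and Csf1r were called at day 25 under all 24 alternatives. The part of these cells in the Hmox1 values was not tested.

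Of the 5 enzymes of haem breakdown, only Ugt1a1 passed the test, at either day or over both days (39.6% of all genes called over both days). This enzyme, which conjugates bilirubin, rose from 320.2 ± 18.2 to 456.2 ± 29.03 FPKM at day 30, and over both days by 0.47 on the log2 scale (adjusted p = 0.00118 from limma). For Hmox2, Blvra and Blvrb the intervals of the log2 fold change at both days ran from -0.43 to 0.45 at their outer ends.

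Hpx was at 1277, 1809 and 1807 FPKM in the Con mice and at 1196, 1549 and 1430 FPKM in the CR mice at day 25. For day 30 the values were 1644, 1432 and 1278 FPKM in Con and 1701, 1633 and 1243 FPKM in CR mice. The groups overlapped at both days. The log2 fold change of Hpx was -0.22 at day 25 (interval -0.60 to 0.16, adjusted p = 0.477 from limma) and 0.07 at day 30 (interval -0.31 to 0.44, adjusted p = 0.827). Over both days it was -0.08 (adjusted p = 0.670 from limma) and 0.01 under quantile normalization.

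Of the 10 genes of scavenging and export, 8 are in the table, and 3 of these fell and 0 rose over both days, a share near the 39.6% of all genes called. Slc48a1, which moves haem out of the lysosome, fell by 0.50 (adjusted p = 0.00174 from limma). Gstp1, a glutathione transferase with near-identical copies that can share reads, fell by 1.73 (adjusted p = 2.2e-04 from limma). Lrp1, the receptor of the haem and haemopexin complex, fell by 0.23 (adjusted p = 0.0745 from limma), which 14 of 23 alternatives kept. Cd163, the macrophage receptor of haemoglobin, rose at day 30 by 0.43 (adjusted p = 0.0637 from limma), which 16 of 22 alternatives kept.

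The rows of Hba-a1 and Hba-a2 are not independent measurements. In the table, Hba-a1 lies at chr11:32283672-32284486 and Hba-a2 at chr11:32283675-32284493 of mm10, so they share 812 bases and take the same reads. GENCODE places Hba-a2 at chr11:32296489-32297298, which is 11996 bases past the end of the row of that name, and the table gives both rows 2 copies in the genome. The coding sequences of both genes, 429 bases each, differ at 1 base and encode the same 142 residues. The stretches below hold coding bases 367 to 395, counted from the A of the start codon, with the differing base, C381T, in capitals.

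Hba-a1: catgcctctctggaCaaattccttgcctc
Hba-a2: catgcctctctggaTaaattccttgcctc

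The 247 bases before the 2 start sites that can be aligned, with an offset of 3 bases, held 0 differences, so the window printed for Hba-a1 stands for both. Reads from either gene can fit either place, and the values below are read as α-globin.

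At day 25, Hba-a1 was at 33.6, 79.0 and 158.3 FPKM in the Con mice and at 61.7, 71.2 and 87.2 FPKM in the CR mice. By day 30 it was at 17.6, 46.2 and 63.7 FPKM in the Con mice and at 136.6, 37.4 and 50.2 FPKM in the CR mice. The ratio of Hba-a2 to Hba-a1 was 0.943 to 0.970 in all 12 libraries, and the Hba-a2 row held 8 to 75 reads fewer. The CR mouse CR10 and the Con mouse Con9 were far above the others of their groups.

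The log2 fold change of Hba-a1 was -0.05 at day 25 (interval -1.31 to 1.21, adjusted p = 0.973 from limma), with a value of 0.01 under median-ratio scaling and of 0.48 without Con9. It was 0.75 at day 30 (interval -0.51 to 2.01, adjusted p = 0.397 from limma), where leaving out CR10 gave 0.20. Hba-a2 gave -0.06 and 0.76 with adjusted p of 0.966 and 0.385 from limma. The 6 globin rows that were tested, 4 of them of β-globin, had log2 fold changes of -0.09 to -0.04 at day 25 and of 0.75 to 0.79 at day 30, and limma called none of them at either day. The β-globin rows also came in near-equal pairs. In Con mice at day 25, Hbb-b1 and Hbb-bs had means of 404.8 and 404.3 FPKM, and Hbb-b2 and Hbb-bt of 59.7 and 59.9 FPKM. The 6 rows are therefore not 6 independent measurements. The embryonic globins Hba-x, Hbb-y and Hbb-bh1 were listed at 0 in all libraries.

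**Figure D3:**
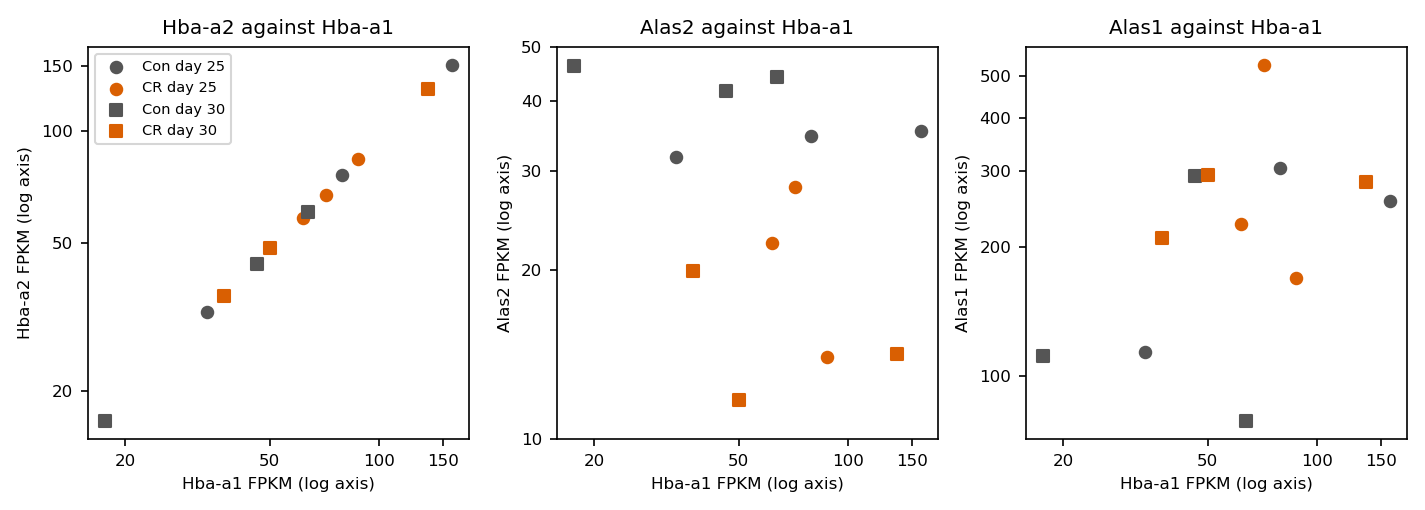
FPKM of Hba-a2, Alas2 and Alas1 (vertical axes) against FPKM of Hba-a1 (horizontal axes) in the 12 libraries, all on log axes. Grey marks are Con and orange marks are CR mice, with circles for day 25 and squares for day 30. Hba-a2 falls on a line with Hba-a1, while Alas2 stays between 31.8 and 46.2 FPKM in Con mice as Hba-a1 goes from 17.6 to 158.3 FPKM.

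No relation of Alas2 with globin between mice passed the test. After the mean of its group was taken off each library, log2(FPKM + 1) of Alas2 and Hba-a1 had a Pearson r of -0.17 over 12 libraries (exact permutation p = 0.611 within groups) and a Spearman rho of -0.15 (exact permutation p = 0.648). Leaving out Con9 and Con10, the libraries farthest from the median of Hba-a1, gave r = -0.21. For Hba-a2 r was 1.00 (exact permutation p = 7.7e-04, the smallest that 1296 permutations allow), which its shared reads with Hba-a1 fixed in advance.

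Of the 8 genes set against Hba-a1, Hba-a2 takes the same reads, so its adjusted p of 0.00617 by exact permutation is no finding. The other 7 did not pass an adjusted p under 0.1, with r from -0.22 to 0.30 and adjusted p of 0.893 by exact permutation. The adjusted p of rho was 0.758 for each of them. A further fit held Hba-a1 as a covariate. There the log2 fold change of Alas2 was -0.69 at day 25 (adjusted p = 0.0775 from limma), -1.45 at day 30 (adjusted p = 0.00377) and -1.07 over both days (adjusted p = 8.4e-04). As Alas2 varied little with Hba-a1 within groups, this fit could hardly move its values and is no test of the part of blood.

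Most other markers of the red cell lineage were near 0. Of 18 erythroid markers described, 11 were below 1 FPKM in every library, with a highest single value of 0.232 FPKM. Slc4a1, the band 3 anion exchanger of the red cell membrane, was at 0.011 to 0.161 FPKM. Gata1, an erythroid transcription factor, was listed at 0 in 9 of 12 libraries. Above 1 FPKM in every library were Klf1 (1.93 to 4.09 FPKM), Car1 (2.32 to 8.07), Car2 (1.59 to 3.83), Bpgm (4.26 to 9.49), Tfrc (3.75 to 10.8) and Fech. The 17 erythroid markers other than Fech summed to 26.2 to 28.5 FPKM in Con and 19.4 to 26.5 FPKM in CR mice at day 25. For day 30 the sums were 22.5 to 28.8 FPKM in Con and 25.3 to 30.2 FPKM in CR mice, while the mean of Alas2 alone was 44.0 FPKM in Con and 15.3 FPKM in CR mice.

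Of the 7 erythroid markers tested, 0 rose and 1 fell over both days (39.6% of all genes called). This was Bpgm, which makes 2,3-bisphosphoglycerate, at -0.57 (adjusted p = 3.5e-04 from limma). Car2, a carbonic anhydrase, rose at day 30 by 0.39 (adjusted p = 0.0813 from limma), which 12 of 22 alternatives kept. Klf1, which regulates globin genes, had a log2 fold change of 0.19 at day 25 and 0.27 at day 30 (adjusted p = 0.479 and 0.232 from limma). Alas2 was placed with the globins by its known use in red cell precursors. The separation of Con and CR mice that it showed at both days was not seen for α-globin, nor for the summed erythroid markers, whose ranges overlapped. Bpgm did show it, with every CR mouse below every Con mouse at both days, as for 12.2% of all genes tested. Bpgm was at 4.73 to 6.16 FPKM in CR and 7.97 to 9.49 FPKM in Con mice at day 25. Its values at day 30 were 4.26 to 5.38 FPKM in CR and 6.84 to 8.25 FPKM in Con mice. The part of blood or of other cells in the Alas2 values was not tested.

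**Figure D4:**
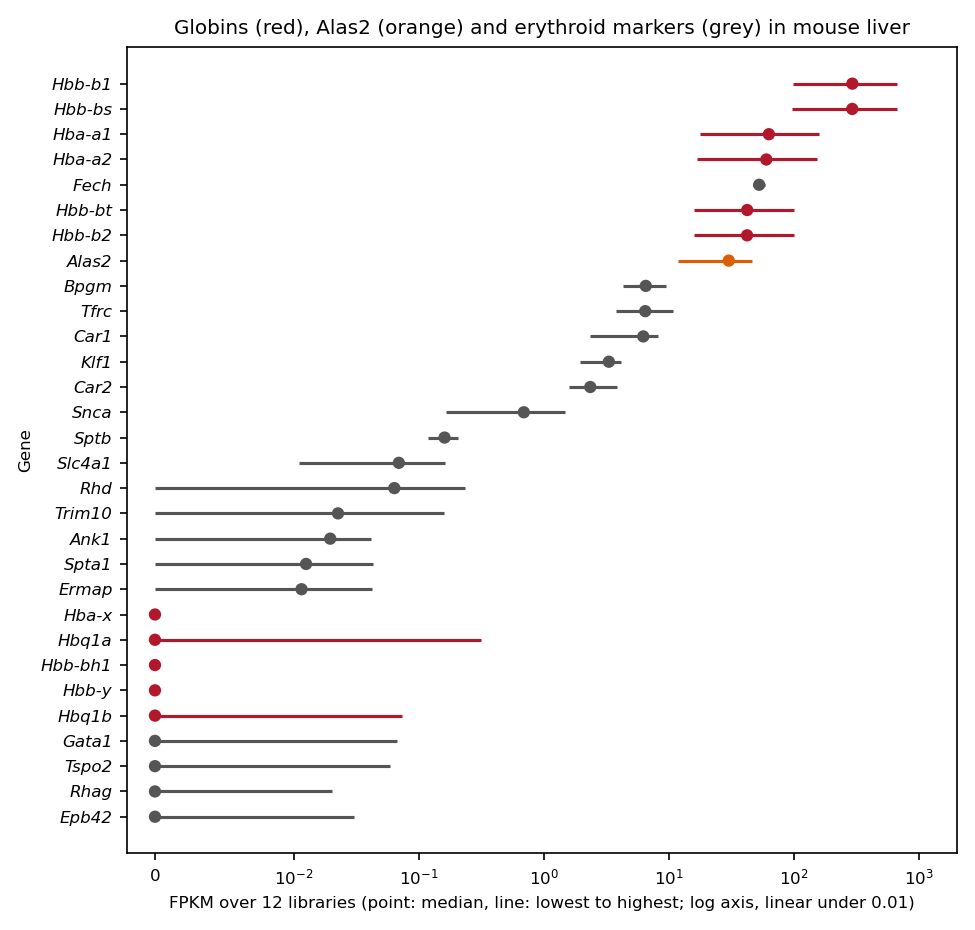
FPKM over the 12 libraries (horizontal axis, logarithmic above 0.01 and linear below it) of globins in red, Alas2 in orange and 18 erythroid markers in grey. Points are medians and lines run from the lowest to the highest library. Alas2 had a median of 30.0 FPKM, between the globins and Bpgm, and Slc4a1 reached 0.161 FPKM at most.

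The genes whose log2(FPKM + 1) lay closest to each pattern over the 12 libraries are given as a description. For Alas2 they were Armc8 (Pearson r = 0.97), Slc12a7 (0.97) and Zbtb22 (0.96), and these values include the differences between the diets. For Alas1 they were Arpc1a (0.88), D230025D16Rik (0.87) and Alpl (0.86), and for Hmox1 Mir292b (0.85), Fundc1 (0.81) and Ttc1 (0.81). For Hba-a1 they were Hba-a2 (1.00), Hbb-b1 (0.99) and Hbb-bs (0.99).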

How the data were processed

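Liver RNA-Seq libraries of 12 mice were used. Per the submitters' notes and methods, 100 bp paired-end reads from a single lane were handled with CASAVA and FastQC and mapped to mm10 with BWA, which does not split reads over introns. The authors deposited FPKM. The header records HOMER counts on exons, with 1 RefSeq transcript per gene and no strand option named, and its version is not given in the sources used here. The study names DESeq2 for its own tests, which was not used here because FPKM are not counts.

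Low FPKM fell on whole multiples of 1 read (100% of 1500 values per library, within 0.1 reads), which gave back depth and reads. With 15748977 to 23345046 reads per library, depth limits Hmox1 most. log2(FPKM + 1) was tested with limma 3.58.1 in R 4.3.3 in a single model of 4 groups with a trend, 2-sided, on genes that reached 1 FPKM in 3 or more libraries. Fold changes are on the log2(FPKM + 1) scale, which understates low genes. "Over both days" is the mean of the effects at both days. The model was tested on simulated data.

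The 9 genes and all lists were chosen with earlier results of these data known. The other genes named are those of the lists that were called, markers described by level, and for Alas1, Alas2, Hmox1 and Hba-a1 the 3 genes closest in r. Klf1, Ppox and the genes named at 0 were added after their values were seen. Some genes of the lists are not reported here and were left out of the list counts. The labels do not say how independent the mice were beyond separate titles, so p-values measure the spread between these libraries, which may be technical. Same-numbered mice of day 25 deviated together (r of deviations from the group means 0.106 to 0.368, mean 0.260), so the number was used as a block in an alternative. The mean of -0.131 for different numbers follows largely from taking off the group means and adds little. The numbers come from the titles. The columns of Con mice at day 30 could not be tied to numbers. With 3 mice a group, an exact test of 1 gene cannot go below p = 0.10.

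Alternatives were other pseudocounts, filters, scalings and moderation, fits of 1 day, voom on recovered reads, the block, and leaving out each library. Hba-a1 as a covariate, leaving out each library for the relation with Hba-a1, and alternatives for the other list genes were chosen after seeing the data. Exons come from GENCODE M21 and promoter sequences from RefSeq on GRCm38.p6, the sequence of mm10. Of the 9 genes, sequence windows of 7 were used.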

Additional observations from a re-analysis of the deposited data

How the results depend on the processing

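The direction of Alas2 and Alad held under every alternative at each day, and Alas2 at day 30 and over both days stayed called in all of them. The number of the 9 genes called at day 25, 1 by default, was 0 at an adjusted p under 0.05, 0 when a log2 fold change of 1 or more in size was required, 0 without a filter on low FPKM, 2 with median-ratio scaling and 2 with the replicate block at day 25. It was 0 to 1 when each library was left out. Over both days the 2 genes called became 1 at an adjusted p under 0.05, 1 with the fold change added and 4 with median-ratio scaling (Alas2, Alad, Urod and Fech). They became 3 with quantile normalization, with the replicate block and without Con8, each time by adding Urod (adjusted p of 0.0995, 0.0891 and 0.0779 from limma), and 1 to 3 over all libraries left out. At day 30 it was 1 to 2 when a library was left out. Among the 9 genes the block changed no call other than those of Alad at day 25 and Urod over both days.

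Of 624 log2 fold changes of the 9 genes under alternatives, 23 turned sign, 14 of them when a library was left out, and none of these had been called. With median-ratio scaling, Hmox1 became 0.029 at day 25, 0.027 at day 30 and 0.028 over both days, Hba-a1 at day 25 became 0.014 and Hba-a2 at day 25 0.0012. With quantile normalization, Hmox1 became 0.032, 0.046 and 0.039, and Hpx over both days 0.015. When each library was left out, values at day 25 ran from -0.080 to 0.74 for Alas1, -0.28 to 0.18 for Hmox1, -0.62 to 0.48 for Hba-a1 and -0.62 to 0.46 for Hba-a2. At day 30 they ran from -0.14 to 0.016 for Hmox1 and -0.022 to 0.21 for Hpx, and over both days from -0.16 to 0.066 for Hmox1. The cause was not tested. The count of genes that varied with Hba-a1 stayed 1 with median-ratio scaling and with each library left out. By default this 1 was Hba-a2, which takes the same reads as Hba-a1.

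Of 66 calls of the other 31 list genes, 39 held in every alternative. Those lost in some include Uros, Cd163 and Car2 at day 30, Clpx, Ugt1a1, Slc48a1 and Ppargc1a at day 25, and Slc25a37, Lrp1 and Nfe2l2 over both days. With 93 to 252 reads for Hmox1 and 3 mice a group, small changes were not detectable.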
